A study of Drosophila melanogaster with 2 samples.

Results

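The genes described here encode the proteins of the mitochondrial ribosome. They were chosen by name, as the protein-coding genes of Drosophila melanogaster (Ensembl's BDGP6 annotation) whose symbol is mRpL or mRpS followed by a number, and 73 of 13968 protein-coding genes met that rule. Of these, 47 are mRpL genes of the large subunit and 26 are mRpS genes of the small subunit. Chromatin was taken from embryos aged 0 to 24 h of flies that express apterous (ap) fused to eGFP, and was immunoprecipitated with an antibody against GFP and sequenced (ChIP-seq). The 2 samples, both of this genotype and age, are labelled biological replicates 1 and 2 and form 1 group, drawn from the same fly line, so every value below is a description of this group and no test between conditions was possible. Whole embryos mix all cell types and every stage of embryonic development, so a peak cannot be tied to a cell type. Whether the flies also carry untagged ap is not stated in the labels. No immunoprecipitation of another genotype was analysed here.

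The mitochondrial ribosome translates the few proteins that mitochondrial DNA encodes, which are core subunits of the respiratory chain and of ATP synthase. Its RNAs come from mitochondrial DNA, but its proteins are all encoded in the nucleus, made in the cytosol and imported. Some of these proteins have counterparts in the bacterial ribosome, and others are found only in mitochondria. Apterous is a LIM-homeodomain transcription factor known for specifying the dorsal compartment of the wing and the identity of certain embryonic muscles and neurons, and homeodomains bind short DNA elements built on TAAT.

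The replicates were compared through peak lists. Each replicate has a ranked list of candidate peaks (82646 in replicate 1 and 102850 in replicate 2), which may not hold every candidate. A thresholded list keeps those that pass a cut on the irreproducible discovery rate, or IDR, which measures how well a peak's rank repeats (1977 and 2210 peaks). The conservative list of both replicates pooled holds 3184 peaks on assembled chromosomes, with a median width of 296 bp. Peak signal, the strength that the authors' files give each peak, had a median of 93.5 in that list. The lists hold no read totals, so sequencing depth is not known here, and a gene with no peak may have one that was not detectable at this depth.

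The number of mitochondrial ribosomal protein genes with a conservative peak depended on how peaks were given to genes. By the rule that a peak belongs to the protein-coding gene whose start is nearest to the summit, 4 of 73 had one, mRpL41, mRpL23, mRpS6 and mRpL40. That is 5.48% (exact Clopper-Pearson 95% interval 1.51% to 13.4%, counting error only), against 15.8% of all protein-coding genes. By a second rule, a summit within 500 bp of a start whichever gene is nearest, 10 of 73 had one, which is 13.7% (6.77% to 23.8%), against 11.8% of all protein-coding genes. The additional 7 are mRpS23, mRpS10, mRpS2, mRpL24, mRpL20, mRpS26 and mRpL39, and mRpL40 drops out because its peak lies far from the gene. The 10 promoter peaks had a median signal of 372, against 118 at the 1650 protein-coding genes with such a summit. The share given by the 500 bp rule is near that of all protein-coding genes. The 20 strongest conservative peaks had summits within 500 bp of 4 of the 73 genes (5.48%) and of 0.158% of all protein-coding genes. Those 4 are mRpL41, mRpS23, mRpS10 and mRpL23, and the peak of mRpL23 ranked 20. The number 20 was set with these values known, so the contrast describes these peaks and is not support. At mRpS23 and mRpS10 the nearest starts to the summits are those of CenG1A and Art3.

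The rules give different answers where gene starts stand close together. At 7 of the 10 promoters, the start nearest to the summit is that of a neighbouring gene transcribed away from the mitochondrial ribosomal protein gene, so that the summit of a single peak lies between a pair of starts. The whole stretch between the starts is shown for 3 such pairs, because in each the summit stands 127 bp or less from the neighbour's start and 141 bp or less from that of the ribosomal protein gene, and no annotated exon lies between them. The sequences are from the RefSeq release 6 genome (dm6), read 5′ to 3′ on the strand of the ribosomal protein gene, whose start follows the last base. The stretches are chr3R:15229409-15229664 on the plus strand for mRpS10, chr2L:4850420-4850640 on the minus strand for mRpS2 and chr2L:4945362-4945578 on the minus strand for mRpL24. The fourth sequence is the 101 bases centred on the summit at mRpS23, chr2L:13835410-13835510 on the minus strand, shown because this peak ranked 8 among all conservative peaks. Capitals mark TAATTA and TAATTG, both homeodomain-type elements, and CAGCTG, an E-box.
mRpS10: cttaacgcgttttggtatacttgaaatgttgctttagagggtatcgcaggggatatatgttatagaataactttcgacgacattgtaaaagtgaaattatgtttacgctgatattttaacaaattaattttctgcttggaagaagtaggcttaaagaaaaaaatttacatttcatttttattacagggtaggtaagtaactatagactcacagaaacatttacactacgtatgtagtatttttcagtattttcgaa
mRpS2: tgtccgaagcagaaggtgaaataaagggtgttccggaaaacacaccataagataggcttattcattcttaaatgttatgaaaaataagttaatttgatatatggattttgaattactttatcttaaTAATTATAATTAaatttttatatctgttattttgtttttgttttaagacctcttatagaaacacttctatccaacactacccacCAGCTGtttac
mRpL24: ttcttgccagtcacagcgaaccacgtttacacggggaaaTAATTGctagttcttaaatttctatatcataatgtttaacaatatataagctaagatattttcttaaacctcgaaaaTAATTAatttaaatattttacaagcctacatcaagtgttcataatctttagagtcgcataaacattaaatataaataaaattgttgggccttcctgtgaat
mRpS23: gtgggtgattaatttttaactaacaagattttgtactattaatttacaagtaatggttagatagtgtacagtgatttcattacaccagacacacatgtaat

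**Figure D1:**
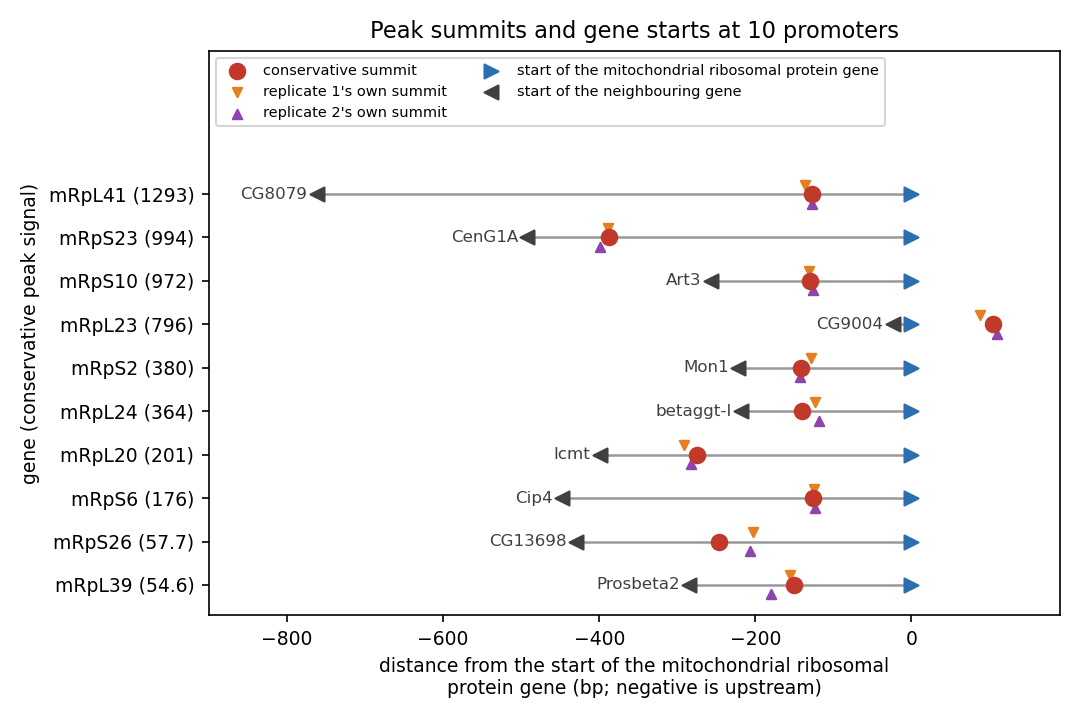
Position of the conservative summit and of each replicate's own summit at the 10 promoters, in bp from the start of the mitochondrial ribosomal protein gene (the start nearest to the neighbour), with the start of the neighbouring gene on the left and the conservative peak signal beside the gene name. In 9 of the 10 the summit lies between the starts, and at mRpL23 it lies beyond both.

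The bases around the summits of the 10 promoter peaks were rich in A and T. In windows of 101 bases, G and C made up 23.8% ± 4.83 (SD, n = 10 windows) at the mitochondrial ribosomal protein promoters, against 32.6% ± 10.5 (SD, n = 1250) at all conservative summits within 500 bp of a start. The lowest was mRpL20 at 15.8% and the highest mRpS26 at 33.7%. Of the 10 windows, 1 held TAATTA and 2 held TAATTG, mRpL24 holding both and mRpS26 the other TAATTG. Among all promoter summits, 11.5% of windows held TAATTA and 10.9% held TAATTG. The pair of TAATTA copies at mRpS2 lies inside the peak but not whole within its window. TATCGATA (the element of the factor DREF), the E-boxes CAGCTG and CACGTG, the repeat GAGAGAG, known from GAGA factor, and GGTCACAC (the core of a promoter element called Motif 1) were in none of the 10 windows. Among all promoter summits they were also rare, in 2.08%, 4%, 0.96%, 1.28% and 0.96% of windows in that order. With 10 windows, finding none is near those shares and sets these genes apart in no way. Both strands were searched, matches of different motifs may share bases, and the absence of a match says only that these letters are not in this window.

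Among the genes of the large subunit, mRpL41 had the strongest peak. Its protein is found in mitochondria and has no bacterial counterpart by its number. In dm6 the peak lies at chr2R:15217612-15217894 and reaches over the start of the gene. Its summit lies between genes, 128 bp upstream of the start. The peak ranked 3 of 3184 with a signal of 1293. The strongest overlapping peak of replicate 1 had 575 and that of replicate 2 had 718 (646 ± 101, SD, n = 2). It is the only one of the 10 promoter peaks with no second protein-coding gene start within 500 bp of the summit. The nearest such neighbour, CG8079, starts 762 bp upstream of mRpL41, and an annotated exon lies between these starts. Replicate values here and below come from each replicate's own ranked list, whose scales are not known to be matched. They show that a peak recurs, which the IDR cut of the conservative list already favours. They do not show how its level compares with the pooled signal.

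mRpL23 belongs to the proteins shared with bacteria, where the counterpart sits at the exit of the peptide tunnel. Its peak, at chr3L:2373491-2373734, ranked 20 with a signal of 796, and the replicates gave 350 and 441 (396 ± 64.1, SD, n = 2). The summit lies 79 bp downstream of the nearest mRpL23 start, in the gene's 5′ UTR, and 129 bp from the start of CG9004, which runs the other way. This was the only promoter summit of the 10 that lay downstream of its start.

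mRpL24, whose bacterial counterpart binds early in assembly of the large subunit, shares its promoter region with betaggt-I, which encodes the beta subunit of an enzyme that prenylates proteins. The starts are 218 bp apart. The peak at chr2L:4945394-4945560 had a signal of 364 and ranked 143, with 155 in replicate 1 and 203 in replicate 2 (179 ± 33.9, SD, n = 2). Its summit is 140 bp upstream of mRpL24 and 78 bp from betaggt-I, so the nearest-start rule gives it to betaggt-I.

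mRpL20, the counterpart of another bacterial protein that binds ribosomal RNA early in assembly, starts 399 bp from Icmt, which encodes isoprenylcysteine carboxyl methyltransferase. The peak at chr3L:13017994-13018289 had a signal of 201 and ranked 457. The replicates gave 91.9 and 111 (102 ± 13.7, SD, n = 2). The summit is 275 bp upstream of mRpL20 and 124 bp from Icmt.

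mRpL39 is a protein known from mitochondria only, and it starts 285 bp from Prosbeta2, a catalytic subunit of the proteasome. Its conservative peak at chr3L:14999668-14999963 was the weakest of the 10, with a signal of 54.6 and rank 2972. The overlapping ranked peaks had signals of 33.7 and 27.6 (30.7 ± 4.31, SD, n = 2), and neither passed the threshold in its replicate. The summit is 150 bp upstream of mRpL39 and 135 bp from Prosbeta2, too close to tell the genes apart at this peak width. The peak holds 2 copies of TATCGATA, both outside the summit window.

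Among the genes of the small subunit, mRpS23 and mRpS10 had the strongest peaks, both below that of mRpL41. mRpS23, a protein of the mitochondrial small subunit, starts 492 bp from CenG1A, which encodes a GTPase-activating protein for Arf. The peak at chr2L:13835348-13835575 had a signal of 994 and ranked 8, with 523 in replicate 1 and 475 in replicate 2 (499 ± 33.9, SD, n = 2). Its summit lies 388 bp upstream of mRpS23 but only 104 bp from CenG1A, the farthest of the 10 from the ribosomal protein gene.

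mRpS10, whose bacterial counterpart is in the head of the small subunit, starts 257 bp from Art3, which encodes an arginine methyltransferase. The peak at chr3R:15229415-15229657 had a signal of 972 and ranked 11. The replicates gave 455 and 523 (489 ± 47.9, SD, n = 2). The summit stands 130 bp from mRpS10 and 127 bp from Art3. In replicate 2's own list the summit lay 126 bp from mRpS10, where mRpS10 has the nearest start. The gene that the nearest-start rule names therefore changed with a shift of a few bases.

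mRpS2, a small subunit protein shared with bacteria, and Mon1, which encodes a protein of endosome maturation, have starts 222 bp apart. The peak at chr2L:4850461-4850647 had a signal of 380 and ranked 130, and the replicates gave 202 and 176 (189 ± 18.3, SD, n = 2). The summit lies 141 bp upstream of mRpS2 and 81 bp from Mon1.

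mRpS6, a protein that in bacteria pairs with S18 on the platform of the small subunit, starts 448 bp from Cip4, which encodes an F-BAR protein that acts on membranes and actin. Its peak at chr3L:4364276-4364571 had a signal of 176 and ranked 581, with 84.5 in replicate 1 and 87.8 in replicate 2 (86.1 ± 2.33, SD, n = 2). The summit lies 126 bp upstream of mRpS6 and 322 bp from Cip4, which makes mRpS6 the nearest gene. mRpS26, another protein known from mitochondria only, starts 430 bp from CG13698. Its peak at chr3L:18106184-18106479 had a signal of 57.7 and ranked 2829, with 30.0 and 25.7 in the replicates (27.8 ± 3.04, SD, n = 2), neither past the threshold. The summit is 247 bp upstream of mRpS26 and 183 bp from CG13698.

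mRpL40, a large subunit protein known from mitochondria only, had a peak by the nearest-start rule alone. Its peak is at chr3R:11392840-11393135, with a signal of 120 and rank 1119. The summit lies 14930 bp upstream of the gene in an exon of prospero (pros), a homeobox gene of the nervous system, and 20200 bp from the nearest start of pros. The replicates gave 53.7 and 64.1 (58.9 ± 7.37, SD, n = 2), and both passed the threshold. mRpL40 is named because its start is the nearest over 18543.5 bp of genome. At the mRpL40 start itself, replicate 1 had no ranked summit within 500 bp and replicate 2 had one with a signal of 13.4. The closest conservative summit to that start, 2030 bp away, has the start of mgr nearer to it.

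Both replicates held the strong peaks, but the conservative list was itself cut on the IDR from these same replicates. Its peaks were therefore likely to recur in them, so the recurrence is not independent support. Of the 73 genes, 8 (11.0%, 4.85% to 20.5%) had a thresholded summit within 500 bp in both replicates, against 7.10% of all protein-coding genes, and these are the 10 without mRpS26 and mRpL39. By the nearest-start rule, replicate 1's thresholded list gave 4 of 73 (5.48%), against 11.0% of all protein-coding genes. Replicate 2's list gave the same 4 and mRpS10, or 5 of 73 (6.85%), against 12.2%. Across the 10 promoter peaks, the replicate 2 over replicate 1 ratio on the log2 scale lay between -0.29 and 0.39, with a mean of 0.07 ± 0.26 (SD, n = 10 peaks), and 6 of the 10 were higher in replicate 2. The scales of the replicates are not known to be matched, so neither the mean nor this count shows a difference between them. mRpL41, mRpS23, mRpS10 and mRpL23 stood above the other 6 in each replicate.

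**Figure D2:**
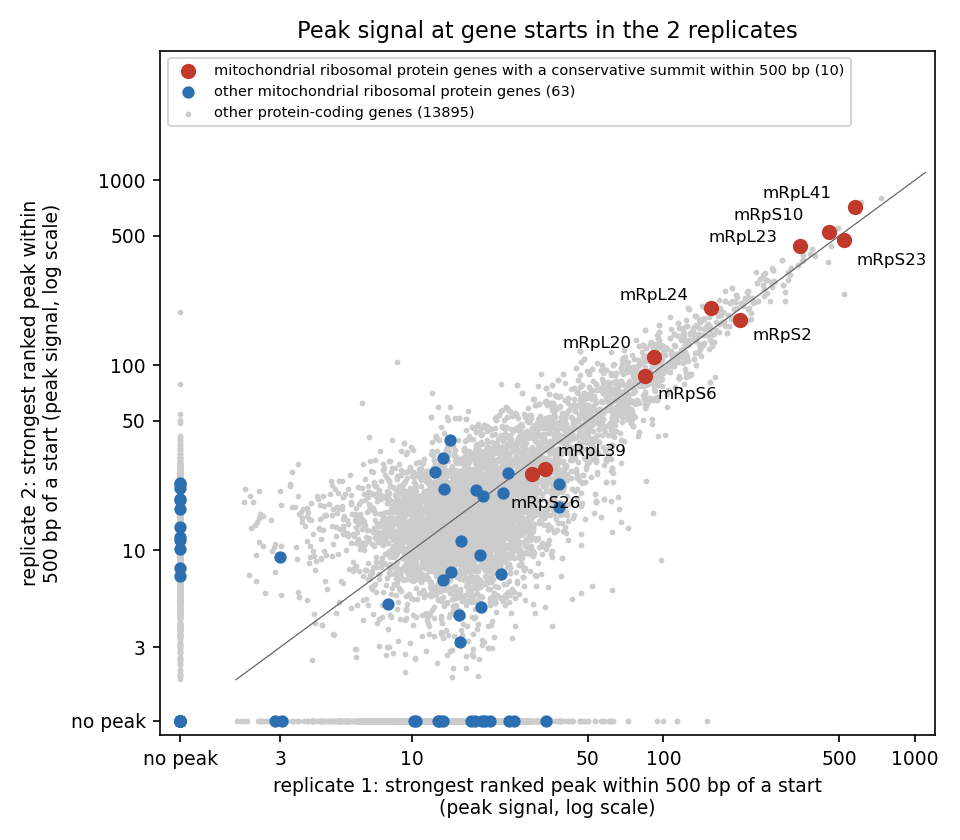
Signal of the strongest ranked peak within 500 bp of each gene's start in replicate 1 (x axis) and replicate 2 (y axis), on log scales, for the 73 mitochondrial ribosomal protein genes and the other protein-coding genes; the line marks equal signal, and genes with no ranked summit are drawn at "no peak". The values of a gene in the replicates can come from different peaks. The 10 genes with a conservative summit reach 575 and 718, and the other 63 stay at or under 38.6 and 39.2. Of the 10, mRpL39 (33.7 and 27.6) and mRpS26 (30.0 and 25.7) lie within the range of the 63.

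The other 63 genes had low signals. None of them had a thresholded summit within 500 bp in either replicate. In replicate 1, 35 of them had a ranked summit there, with signals of 2.86 to 38.6 and a median of 15.7, against 15.8 for other protein-coding genes without a conservative promoter summit. In replicate 2, 32 of them had one, with signals of 3.19 to 39.2 and a median of 15.0, against 14.0 for those other genes. The highest means over the replicates were those of mRpS18B, with 38.6 in replicate 1 and 22.8 in replicate 2, mRpL4 with 38.3 and 17.1, and mRpS22 with 14.2 and 39.2. As a ratio, the replicates stood farther apart at these 3 genes than at any of the 10 promoter peaks. As a difference in signal, they stood farther apart than at some of the 10 and closer than at others.

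Over all 73 genes, a ranked summit within 500 bp was found for 45 (61.6%, 49.5% to 72.8%) in replicate 1, against 62.4% of all protein-coding genes. In replicate 2 it was found for 42 (57.5%, 45.4% to 69.0%), against 66.1%, and in both replicates for 30 (41.1%, 29.7% to 53.2%), against 47.9%. A gene counted in both need not have the same peak in each. At mRpL36, for example, the summit lay at 340 bp from the start in replicate 1 and at -495 bp in replicate 2. Neither replicate had a ranked summit within 500 bp at 16 of the 73 (21.9%, 13.1% to 33.1%), against 19.4% of all protein-coding genes. These 16 are mRpL3, mRpL9, mRpL10, mRpL11, mRpL13, mRpL14, mRpL15, mRpL30, mRpL43, mRpL46, mRpL47, mRpL55, mRpS9, mRpS18C, mRpS30 and mRpS31. The share of all protein-coding genes lies within the interval of the 73 in each of these 4 counts.

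The less strict pooled list added 3 genes of the small subunit. By the nearest-start rule it gave 7 of 73 (9.59%), against 16.4% of all protein-coding genes. mRpS7, whose bacterial counterpart lies in the head of the small subunit, had a signal of 80.1 with the summit 126 bp upstream and Cdk1 starting 274 bp from it. Replicate 1 gave 34.1 there and replicate 2 had no overlapping ranked peak. mRpS18B, which encodes a mitochondrial S18 protein, had a signal of 70.2 with the summit 56 bp upstream. mRpS22, known from mitochondria only, had a signal of 56.1 with the summit 107 bp upstream. None of the 3 had a thresholded peak in either replicate.

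The promoters of these genes were packed close to those of other genes. The nearest start of another protein-coding gene was a median of 384 bp away for the 73 genes, against 1379.5 bp for all protein-coding genes. Another start lay within 500 bp for 54 of 73 (74.0%), against 30.8% of all protein-coding genes. It was head to head, on the opposite strand and leading away, for 52 of 73 (71.2%), against 25.3%. At the other extreme, the nearest other start to mRpS5 was 186799 bp away, and mRpL13 and mRpL53 share a start with another gene. The stretch over which a gene's start is the nearest had a median of 1522.5 bp for the 73 genes, against 4252.75 bp for all, so less of the genome is assigned to these genes by the nearest-start rule. The nearest conservative summit was a median of 7228 bp from the 73 genes and 11969.5 bp from all protein-coding genes.

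**Figure D3:**
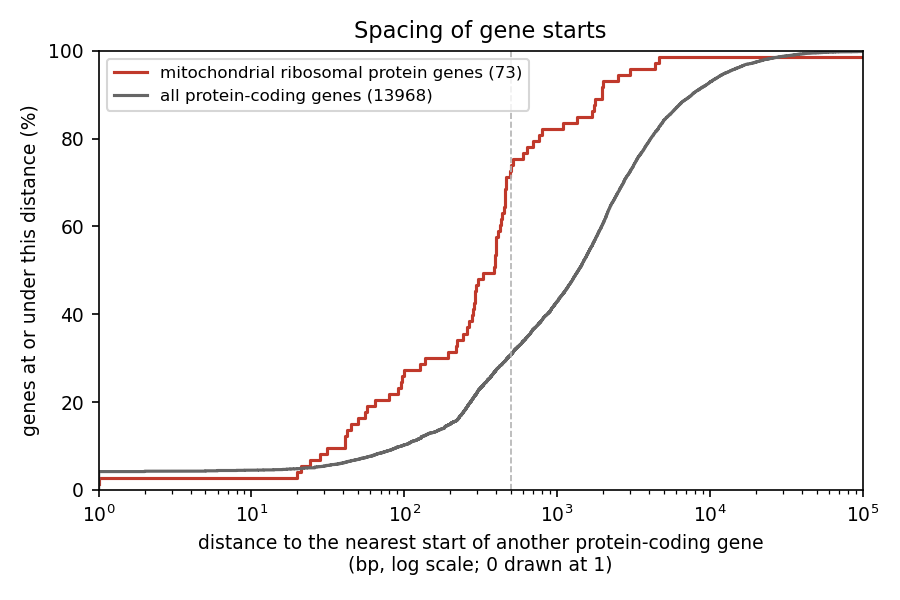
Cumulative share of genes (y axis, %) by distance to the nearest start of another protein-coding gene (x axis, bp, log scale), for the 73 mitochondrial ribosomal protein genes and all 13968 protein-coding genes, with a dashed line at 500 bp. At 500 bp the curves stand at 74.0% and 30.8%, and mRpS5, at 186799 bp, lies past the right edge.

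Promoter peaks were then counted by this arrangement. A conservative summit lay within 500 bp of 9 of the 52 genes head to head within 500 bp (17.3%), against 1 of the other 21 (4.76%). That 1 is mRpL41, which is head to head with CG8079 but at 762 bp. Over all protein-coding genes the shares were 22.6% of 3527 head-to-head genes and 8.16% of the 10441 others. Counted per gene, whichever gene is nearest, another protein-coding gene start lay within 500 bp of the summit for 9 of the 10. This held for 937 of the 1650 protein-coding genes with a promoter summit (56.8%). The summit lay upstream of the gene's own start for 9 of the 10, at a median of -140.5 bp over the 10, against 1454 of the 1650 (88.1%), at a median of -143 bp. A peak between a pair of starts cannot be given to either gene from these data, and its part in the expression of the ribosomal protein gene was not tested.

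The 10 genes were spread over both subunits and both evolutionary classes. In the large subunit 5 of 47 had a promoter summit (10.6%, 3.55% to 23.1%), and in the small subunit 5 of 26 (19.2%, 6.55% to 39.4%). Of the 42 genes whose number is shared with bacterial proteins (up to L36 and S21), 6 had one (14.3%, 5.43% to 28.5%), and of the 31 with higher numbers, 4 had one (12.9%, 3.63% to 29.8%). The intervals overlap widely in both splits. tko and bonsai, which encode mitochondrial ribosomal proteins under other symbols, had none.

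Mitochondrial ribosomal protein genes were set beside those of the cytosolic ribosome, which translates nuclear messages. A promoter summit was present at 10 of 73 mitochondrial ribosomal protein genes, with a median signal of 372 and a highest of 1293, against 48 of 92 cytosolic ones (52.2%, 41.5% to 62.7%), with a median of 124 and a highest of 323, at RpS27. The nearest-start rule gave 4 of 73 and 48 of 92. By the promoter rule, 32 of 54 cytosolic large subunit genes and 16 of 38 small subunit genes had a summit. RpL7, with 307, and RpL32, with 270, came next after RpS27. A head-to-head neighbour within 500 bp was present at 71.2% of the mitochondrial and 38.0% of the cytosolic ribosomal protein genes.

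Other nuclear genes act in mitochondrial gene expression. Of 41 such genes, 4 (9.76%, 2.72% to 23.1%) had a promoter summit. They were PNPase, a polynucleotide phosphorylase of mitochondrial RNA, with a signal of 998, mtSSB, the mitochondrial single-stranded DNA binding protein, with 141, and the synthetase genes ProRS-m with 94.4 and CysRS-m with 68.3. None of the 9 mitochondrial translation factor genes had one. Among 84 nuclear genes of the respiratory chain and ATP synthase, 8 had a promoter summit (9.52%, 4.20% to 17.9%), led by the complex I genes ND-ASHI with 279, ND-MWFE with 176 and ND-24 with 155. COX5A of complex IV had 126, ATPsynE and ATPsynCF6 of ATP synthase had 108 and 62.6, and complexes II and III had none. The nearest-start rule gave no conservative peak to CysRS-m, ND-ASHI, ND-MWFE or COX5A, so it gives these promoter summits to other genes.

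**Figure D4:**
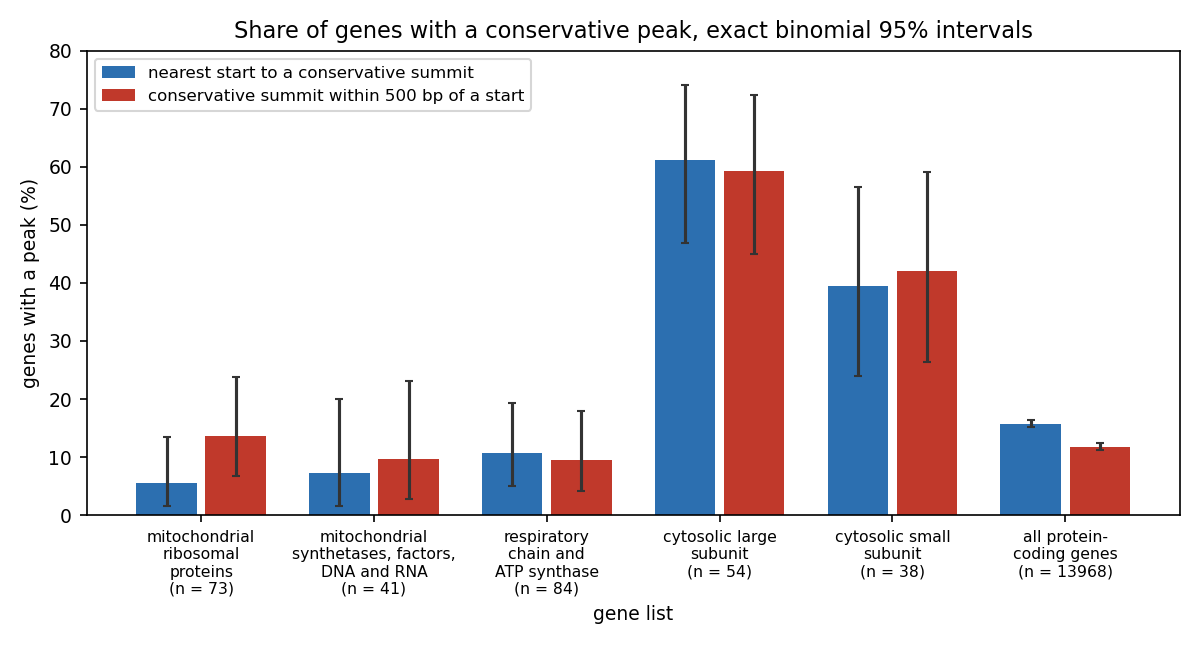
Share of genes with a conservative peak (y axis, %) for mitochondrial ribosomal protein genes, the other lists and all protein-coding genes, by the nearest-start rule (blue) and the 500 bp rule (red), with exact binomial 95% intervals. Mitochondrial ribosomal protein genes stand at 5.48% and 13.7%, all protein-coding genes at 15.8% and 11.8%, and the cytosolic ribosomal protein genes above both.

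The promoters of the 73 genes were also searched for short sequence elements. In the 300 bases from 250 before to 50 after the start, CAGCTG was present in 40 of 73 (54.8%), against 17.6% of all protein-coding promoters. The first base of its 45 matches lay at a median of 2 bases downstream of the start, with quartiles at -34 and 16. The summits, by contrast, were mostly well upstream, at a median of -140.5 bp, and where CAGCTG lay within 500 bp of a summit, in 6 of the 10, it was 95 to 351 bp from it. CAGCTG was in the promoters of 5 of the 10 genes with a promoter summit and of 35 of the 63 without (55.6%). It was in 9.78% of cytosolic ribosomal protein promoters, 23.8% of those of the respiratory chain and ATP synthase, and 43.9% of those of the other mitochondrial gene expression genes. Among head-to-head genes alone, it was in 53.8% of the 52 mitochondrial ribosomal protein promoters, against 24.8% of all 3527.

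TATCGATA was in 15 of the 73 promoters (20.5%), against 9.36% of all, and TAATTG in 26 (35.6%), against 25.2%. TAATTA was in 15 (20.5%), against 20.4%. GGTCACAC was in 8 (11.0%, against 7.69%) and CACGTG in 5 (6.85%, against 4.20%). GAGAGAG was in 1 (1.37%, against 5.86%), and CTTTC, part of the TCT initiator of cytosolic ribosomal protein genes, was found on the gene's strand within 50 bases of the start in 4 (5.48%, against 11.3%). The mean G and C content was 35.98% ± 6.20 (SD, n = 73 promoters), against 39.1% ± 7.74 (SD, n = 13968). A match describes the sequence and is not evidence of a bound site. The part that base composition has in these shares was not tested.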

How the data were processed

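Peak lists on dm6 from ENCODE's transcription factor ChIP-seq processing were used as deposited, per the labels. Fragments were sonicated to 200 to 800 bp, per the labels. The aligner and the peak caller are named in none of the sources used here. Signal, as the authors deposited it, ranked peaks within a list, and the deposited score, a scaled form of the IDR (830 or higher, at most 1000, in thresholded lists), was used only as a filter the authors had set. At a pooled peak, each replicate's value is that of its strongest ranked peak that overlaps by at least 1 bp. Without read totals, depth is unknown, and a deeper library can give a longer list.

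The 17 conservative peaks off the assembled chromosomes and a second pooled ranked list were left out. Genes, every transcript start and exons came from Ensembl release 115, and sequence from RefSeq release 6. Each gene's promoter of 300 bases and summit windows of 101 bases were searched for exact motifs. Shares have exact Clopper-Pearson 95% intervals (scipy 1.17.1). Python 3.11.15, numpy 2.4.6, pandas 2.3.3 and matplotlib 3.10.9 were used. The code that finds the nearest start was tested on simulated summits, placed close to starts that stand apart from other starts. That test does not cover the choice of a gene for a summit between a close pair of starts.

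Named are all members with a conservative peak, those in the less strict list, the 3 others of highest replicate signal, those with no ranked peak near a start, and up to 3 genes of each other list with the strongest signals. Members, lists and motifs were chosen with earlier results of these data known.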

Additional observations from a re-analysis of the deposited data

How the results depend on the processing

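The number of mitochondrial ribosomal protein genes with a conservative peak was 4 by the nearest-start rule (5.48%, against 15.8% of all protein-coding genes). With the less strict list it was 7 (9.59%, against 16.4%), and it was 10 when a summit within 500 bp of any own start counted. Without replicate 1 it was 5 (6.85%, against 12.2%), and without replicate 2 it was 4 (5.48%, against 11.0%). With the 1592 strongest peaks only it was 4 (5.48%, against 9.33%). It was 6 with a single start per gene, and 4 with non-coding genes included or with all genes at a shared start counted. For these last settings no share of all protein-coding genes is available here, so the counts have nothing to be set against. The count by the 500 bp rule, 10 (13.7%, against 11.8% of all protein-coding genes), was 8 at 250 bp (11.0%, against 8.96%) and 10 at 1000 bp (13.7%, against 14.2%). It was 12 with the less strict list (16.4%, against 12.2%; mRpL39 lost), 8 among the 1592 strongest peaks (11.0%, against 7.40%), and 8 when replicate 1 or replicate 2 was left out (11.0%, against 9.64% and 8.40%). These alternatives to the 500 bp rule were chosen after seeing the data. The median signal of the 4 peaks, 486, was 120 over the 7 of the less strict list. In single replicates it was 217 to 441, on scales not known to match that of the pooled signal. The 441, from replicate 2, also covers mRpS10. No paired analysis was possible because there is 1 group. Peak widths limit how well a summit between close starts can be given to a gene, and weak peaks are limited by an unknown depth.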
